A study of Mus musculus with 10 samples.

Results

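The clonotypes described here are productive heavy-chain (Igh) rearrangements that both wild-type (WT) libraries of peritoneal cavity B-1a cells shared and that neither Igll1-/- library held. A clonotype is a combination of V gene, J gene and CDR3 amino acid sequence. It was counted as shared when it had at least 2 reads in each WT library, and as absent when no Igll1-/- library listed it. Of 149111 productive clonotypes in the 4 libraries, 2104 were shared by WT, and 670 of these were absent from both Igll1-/- libraries (31.8%). Of the other 1434, 825 were found in both Igll1-/- libraries and 609 in exactly 1. The same rule with the genotypes exchanged gave a control set of 283 clonotypes out of 1451 shared by Igll1-/- (19.5%). The members were chosen by their reads in WT and their absence in Igll1-/-, so V, D and J use and CDR3 length are described without a test.

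Genomic DNA of B-1a cells sorted from the peritoneal cavity of C57BL/6 mice aged 6 to 8 weeks served as PCR template, with 2 libraries from WT and 2 from Igll1 knockout mice. The knockout removes a component of the surrogate light chain (SLC) from every cell, so no pre-BCR forms. The question was how SLC deficiency affects the repertoire. The productive reads numbered 205921 and 200915 in WT and 170208 and 264284 in Igll1-/- replicates 1 and 2, and 66.7% to 72.3% of the productive clonotypes of a library rested on 1 read. A clonotype with no read in Igll1-/- replicate 1 could have made up as much as 0.00176% of the reads there, and 0.00114% in replicate 2, which covers counting error only. Libraries of Igh DNA hold no expressed markers, so the sorted cell type could not be checked in them.

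B-1a cells are innate-like B cells, mostly of fetal origin, whose heavy chains are enriched for receptors that bind the membrane lipid phosphatidylcholine (PtC). VH11 and VH12 are the V genes best known for PtC binding. VH11 chains pair mainly with the light chain gene IGKV14-126, and VH12 chains with IGKV4-91 and carry a CDR3 of fixed length with a glycine at a fixed place. In most B cells a new heavy chain is first tested for pairing with SLC in the pre-BCR. Fetal precursors add few N nucleotides at the junctions, so the same CDR3 can arise again in different mice.

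The CDR3 sequences of the 10 members with the highest read share in the WT library where that share was lower are shown first, because they include both kinds of clonotype that made up the set. In the 6 sequences on IGHV11-2, each differs at 1 position from a far more abundant clonotype.
Clonotype on IGHV5-4 with IGHJ3: ARDGTWFAY
Clonotype on IGHV1-53 with IGHJ1: ARDYSNYWYFDV
Clonotype on IGHV5-9-1 or IGHV5S21 with IGHJ2: TRDSNYYFDY
Clonotype on IGHV9-2-1 or IGHV9-3 with IGHJ2: ARSSNYYFDY
Clonotype on IGHV11-2 with IGHJ1: MRYGNSWYFDV
Clonotype on IGHV11-2 with IGHJ1: MRYGNYWYSDV
Clonotype on IGHV11-2 with IGHJ1: MRYSSSYWYFDV
Clonotype on IGHV11-2 with IGHJ1: IRYGNYWYFDV
Clonotype on IGHV11-2 with IGHJ1: MRYSNHWYFDV
Clonotype on IGHV11-2 with IGHJ1: MRYGNYWYFGV

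The abundant IGHV11-2 clonotypes that these 6 resemble all use IGHJ1. They are no members, since the Igll1-/- libraries list them, and they are shown for comparison.
Most abundant IGHV11-2 clonotype, with IGHD2-1: MRYGNYWYFDV
IGHV11-2 clonotype with serine at position 4: MRYSNYWYFDV
IGHV11-2 clonotype of 12 residues: MRYGSSYWYFDV

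Substitutions are written with the residue of the abundant clonotype, its position counted from 1 at the first residue of the CDR3, and the residue of the member. MRYGNSWYFDV carries Y6S, MRYGNYWYSDV carries F9S, IRYGNYWYFDV carries M1I and MRYGNYWYFGV carries D10G relative to MRYGNYWYFDV. MRYSSSYWYFDV differs by G4S from MRYGSSYWYFDV, and MRYSNHWYFDV by Y6H from MRYSNYWYFDV.

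ARDGTWFAY on IGHV5-4 had the highest lower read share, with 100 and 77 reads in WT replicates 1 and 2. ARDYSNYWYFDV on IGHV1-53 had 78 and 85 reads. TRDSNYYFDY on IGHV5-9-1 or IGHV5S21 had 63 and 66 reads. These 3 were nearly even between the WT replicates, and their lower shares, 0.0383%, 0.0379% and 0.0306% of productive reads, lay far above the 0.00176% that a count of 0 allows in the shallower Igll1-/- library. ARSSNYYFDY on IGHV9-2-1 or IGHV9-3 had 61 reads in WT replicate 1 and 129 in replicate 2. Of the IGHV11-2 members named above, MRYGNSWYFDV had 59 and 96 reads and MRYGNYWYSDV had 59 and 118. The other 4 ranged from 41 to 49 reads in WT replicate 1 and from 55 to 79 in replicate 2, so all 6 were higher in replicate 2.

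Most members rested on few reads. The median member had 4 reads in each WT library, 348 of the 670 had exactly 2 reads in the library with fewer, and 82 had exactly 2 in both. Together the members held 6348 reads (3.08% of productive reads) in WT replicate 1 and 10305 (5.13%) in replicate 2, whereas the 1434 shared clonotypes also found in Igll1-/- held 40.1% and 35.7%. Just outside the rule lay 1437 Igll1-absent clonotypes with 2 or more reads in 1 WT library and 1 read in the other, and 302 WT-shared clonotypes with a single read over both Igll1-/- libraries. Over both Igll1-/- libraries together, with 434492 productive reads, a count of 0 allows a share of up to 0.00069%. The minimum of 2 reads put the lowest lower WT share at 0.000971%. All 670 members thus exceeded this limit by the rule itself, as all 283 control clonotypes exceeded that of the WT libraries together. For 228 members (34.0%) the lower WT share also exceeded what a count of 0 allows in each Igll1-/- library alone. Of the 228, 103 used IGHV11-2 and 28 used IGHV12-3. Only 114 of the 228 were no 1-residue neighbours of a much more abundant clonotype, as defined below. In the control set 122 of 283 (43.1%) exceeded this in each WT library alone.

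**Figure D1:**
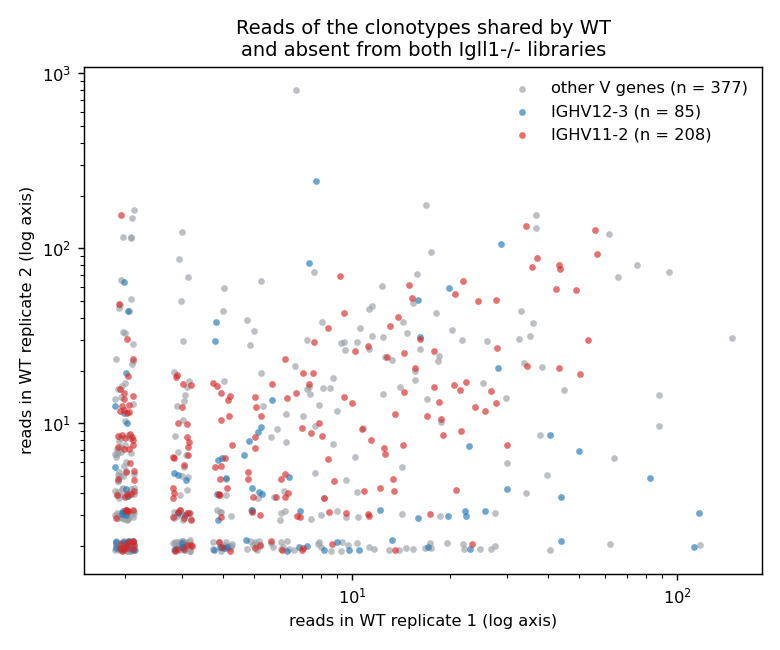
Reads of each of the 670 members in WT replicate 1 (x axis) and WT replicate 2 (y axis), both on log axes, with points slightly displaced so that equal counts do not hide each other; colour gives the V gene. Most points crowd at 2 to 4 reads, IGHV11-2 points (red) spread along the diagonal, and a few points are high in 1 replicate alone, up to 7 against 796 reads.

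The replicates agreed only loosely for single members. Reads were higher in WT replicate 2 for 315 members, higher in replicate 1 for 245 and equal for 110, and 49 members (7.31%) differed more than 10-fold between the replicates. The member with the most reads, on IGHV2-6 or IGHV2-6-4 with IGHJ4, had 7 reads in replicate 1 and 796 in replicate 2, a ratio of 114. Its read share was thus set almost wholly by 1 library. In the control set 24 of 283 (8.48%) differed more than 10-fold between the Igll1-/- replicates.

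IGHV11-2 was the V gene with the most members. It took 208 of the 670 (31.0%), and IGHV12-3 took 85 (12.7%). IGHV1-19 followed with 31 members, IGHV1-69 or IGHV1-74 with 27 and IGHV9-2-1 or IGHV9-3 with 26. IGHV5-4, IGHV5-17, IGHV9-4, IGHV5-12-1 or IGHV5-17, and IGHV1-53 had 14 to 18 members each. Names joined by "or" mark clonotypes that the tables list with several V genes, which were 99 of the members (14.8%). IGHV7-1, the V gene of the classical phosphorylcholine-binding antibodies, and IGHV5-2, the D-proximal gene also called 81X, had 0 members, but the base was too small to say more, since WT shared 0 clonotypes on IGHV7-1 and 1 on IGHV5-2. By family, IGHV11 and IGHV1 held 208 and 202 members, IGHV12 held 85, IGHV5 held 70, IGHV9 held 45 and IGHV6 held 20. The families IGHV2, IGHV3, IGHV4, IGHV7, IGHV8, IGHV10 and IGHV14 held 1 to 9 each. Some of these small families also had a high share of absent clonotypes, with 8 of 10 WT-shared clonotypes absent from Igll1-/- on IGHV8 (80%, exact 95% binomial interval 44.4 to 97.5), 9 of 14 on IGHV3 (64.3%, 35.1 to 87.2) and 8 of 14 on IGHV10 (57.1%, 28.9 to 82.3). On IGHV6 it was 20 of 44 (45.5%, 30.4 to 61.2). Most members on IGHV3 and IGHV10, however, carried a CDR3 that was far more abundant on another V gene, mainly IGHV11-2 or IGHV12-3.

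The control set had another make-up. It contained 0 clonotypes on IGHV11-2 and 3 on IGHV12-3 (1.06%), while IGHV1 took 56.2%, IGHV5 20.5% and IGHV9 13.8% of it. Its 5 clonotypes with the highest lower read share are shown because the first is more abundant than any member.
Clonotype on IGHV9-3 with IGHJ4: ARSTVVAMDY
Clonotype on IGHV9-3 with IGHJ2: ARLLRYFDY
Clonotype on IGHV9-3 with IGHJ2: ARFTTVVFDY
Clonotype on IGHV9-3 with IGHJ2: ARGLYYFDY
Clonotype on IGHV10-1 with IGHJ3: VRHYGFAY

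ARSTVVAMDY had 645 and 2998 reads in Igll1-/- replicates 1 and 2, which is 0.379% and 1.13% of productive reads. ARLLRYFDY had 165 and 211, ARFTTVVFDY 773 and 152, ARGLYYFDY 74 and 113, and VRHYGFAY 26 and 71. The first 4 of these use IGHV9-3, and all 5 had 0 reads in both WT libraries.

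Of the 294 WT-shared clonotypes on IGHV11-2, 208 were absent from Igll1-/- (70.7%, exact 95% binomial interval 65.2 to 75.9). Of the 185 on IGHV12-3, 85 were absent (45.9%, 38.6 to 53.4), and of the 1810 on all V genes but IGHV11-2, 462 were absent (25.5%, 23.5 to 27.6). Among the 10 V genes with the most members the share ran from 13.1% for IGHV5-4 to that of IGHV11-2. With the genotypes exchanged, 0 of the 20 Igll1-/- shared clonotypes on IGHV11-2 were absent from WT (upper bound 16.8%), and 3 of 45 on IGHV12-3 (6.67%). The intervals cover counting error only and take clonotypes as independent, which near-identical ones may not be.

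On IGHV11-2 this share moved with the number of reads. Among IGHV11-2 clonotypes with 2 reads in the lower WT library 71 of 81 were absent from Igll1-/- (87.7%), and the share was 81.7% at 3 to 4 reads, 72.0% at 5 to 9, 66.7% at 10 to 19 and 32.1% (17 of 53) at 20 or more. On all V genes but IGHV11-2 the corresponding shares were 28.4%, 19.8%, 25.4%, 35.6% and 14.2%. IGHV11-2 was above the other V genes in each range, and its share fell from range to range, whereas that of the other V genes was highest at 10 to 19 reads (36 of 101) and followed no such order.

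**Figure D2:**
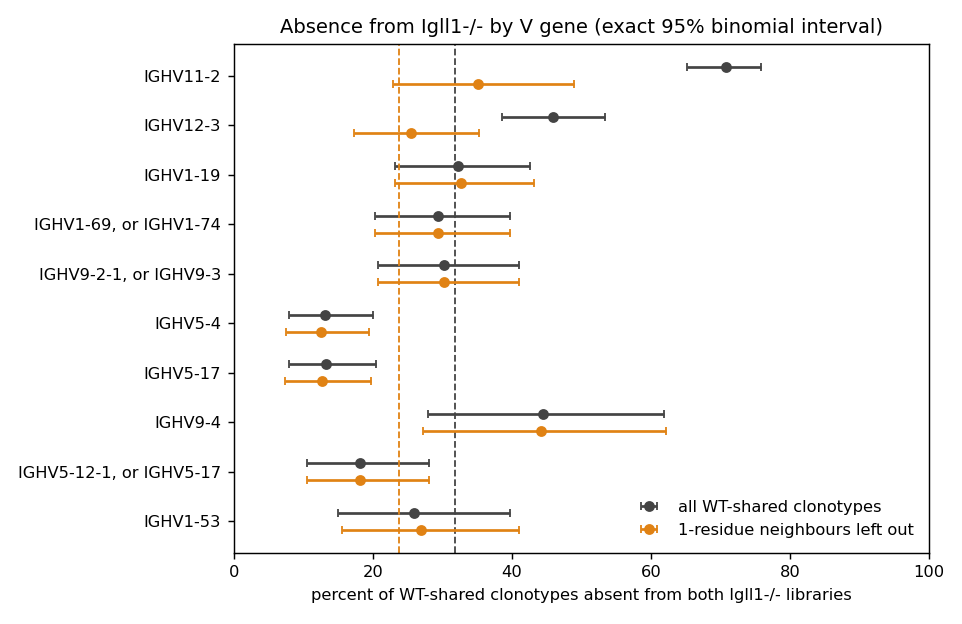
Percent of WT-shared clonotypes that were absent from both Igll1-/- libraries, for the 10 V genes with the most members; bars are exact 95% binomial intervals and dashed lines the share over all V genes, before (grey) and after (orange) leaving out clonotypes 1 residue from one with at least 10 times the reads. IGHV11-2 drops from 70.7% to 35.1% and IGHV12-3 from 45.9% to 25.5%, while the other V genes move little.

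Many members lay 1 residue from a much more abundant clonotype. A member was counted as a neighbour when a clonotype of the same V gene, J gene and CDR3 length differed from it by 1 amino acid and had at least 10 times its reads in both WT libraries. This held for 255 members (38.1%), against 97 of the 1434 shared clonotypes also found in Igll1-/- (6.76%) and 36 of 283 in the control set (12.7%). IGHV11-2 supplied 188 of the 255 neighbours and IGHV12-3 supplied 60, so the other V genes together supplied 7. The definition was chosen after the sequences were seen.

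Without the neighbours, 415 of 1752 WT-shared clonotypes were absent from Igll1-/- (23.7%), and 247 of 1358 with the genotypes exchanged (18.2%). IGHV11-2 then kept 20 of the 415 members (4.82%) and IGHV12-3 kept 25 (6.02%), and IGHV1 became the largest family with 198 (47.7%). The absent share on IGHV11-2 was 20 of 57 (35.1%, 22.9 to 48.9), beside the 23.7% over all V genes, IGHV11-2 included. On IGHV12-3 it was 25 of 98 (25.5%, 17.2 to 35.3). By reads in the lower WT library, 14 of the 22 remaining IGHV11-2 clonotypes with 2 reads were absent (63.6%, 40.7 to 82.8), against 239 of 918 on all other V genes (26.0%, 23.2 to 29.0). Of the remaining IGHV11-2 clonotypes with 3 or more reads, which were few, 3 of 14 were absent at 3 to 4 reads, 1 of 7 at 5 to 9, 2 of 5 at 10 to 19 and 0 of 9 at 20 or more. On all other V genes 61 of 383 were absent at 3 to 4 reads and 43 of 180 at 5 to 9. At 10 to 19 reads it was 36 of 98, and at 20 or more 16 of 116. IGHV11-2 was thus far above the other V genes at 2 reads only, and below them at 5 to 9 and at 20 or more. The 14 absent at 2 reads included AGDRDGYWYFDV, AGDRSGYWYFDV and AGDRTGYWYFDV, which had at least 10 times the reads on IGHV12-3. These shares count the presence and absence that the rule used, so no test was made of them.

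The abundant clonotypes behind the neighbours were present in Igll1-/- at a small fraction of their WT level. MRYGNYWYFDV had 13691 and 15993 reads in WT and 66 and 129 in Igll1-/- replicates 1 and 2, and 45 members were its neighbours. MRYSNYWYFDV, with 33 neighbours, had 5464 and 7961 reads in WT and 41 and 59 in Igll1-/-. MRYGSSYWYFDV, with 32 neighbours, had 8858 and 2986 in WT and 58 and 135 in Igll1-/-. The Igll1-/- read shares of these 3 were 0.531% to 1.77% of their mean WT share. These clonotypes were singled out by their neighbours among the members. Neighbours of a clonotype that is low in Igll1-/- are more easily absent there, so the choice favours such clonotypes and the comparison is a description. Over all clonotypes IGHV11-2 took 20.9% and 25.4% of productive reads in WT and 0.481% and 0.704% in Igll1-/-, whereas IGHV12-3 took 16.9% and 7.65% in WT and 21.6% and 9.23% in Igll1-/-.

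**Figure D3:**
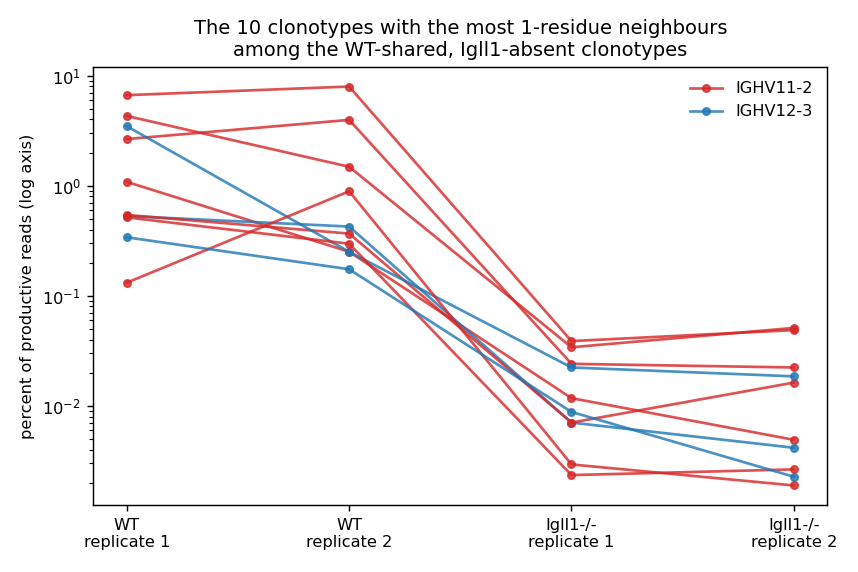
Percent of productive reads (log axis) in each of the 4 libraries for the 10 clonotypes with the most neighbours among the members; each line joins the values of 1 clonotype and the colour gives its V gene. All 10 are lower in both Igll1-/- libraries than in both WT libraries, and the top line at left, MRYGNYWYFDV, runs from 6.65% and 7.96% to 0.0388% and 0.0488%. The 10 were chosen by neighbours absent from Igll1-/-, and how many other clonotypes are lower in this way was not counted.

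The 45 neighbours of MRYGNYWYFDV together had 5.05% and 7.84% of its reads in WT replicates 1 and 2, and they fell on all 11 positions of the CDR3. Position 10 held 7 of the 45, position 1 held 6 and position 9 held 5, while position 3 held 2 and position 2 held 1. The 33 neighbours of MRYSNYWYFDV fell on 9 positions. Of the 255 substitutions, 244 (95.7%) can be made by changing 1 base of a codon, which is possible for 150 of the 380 ordered pairs of amino acids (39.5%). The codons actually used are not known, and the 380 pairs were counted equally. Neighbours in the other sets were not examined in this way, so the 2 shares are a description only. At the ratios measured in WT and the reads that the abundant clonotypes had in Igll1-/-, all 255 neighbours together would come to 23.5 reads in Igll1-/- replicate 1 and 34.2 in replicate 2. A single neighbour would have a median of 0.0511 and 0.0759 reads there, and 2 and 1 of them would reach 1 read. These values rest on the WT reads by which the members were chosen and are a description. The reads carry no molecular identifiers, and neighbours that were separate rearrangements cannot be told apart from copies of the abundant clonotype that changed in PCR or sequencing.

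Some members repeated the CDR3 of an abundant clonotype on another V gene. For 85 members (12.7%) the same J gene and CDR3 occurred on another V gene with at least 10 times the reads in both WT libraries, and for 21 of these the other V gene was IGHV11-2. MRYGNYWYFDV was listed on 9 V genes among the members, the most of any CDR3. On IGHV5-12-1 or IGHV5-17 it had 15 and 51 reads, on IGHV5-4 it had 10 and 37, and on IGHV10-1 it had 7 and 15. These were small beside its 13691 and 15993 reads on IGHV11-2. In the control set 90 of 283 (31.8%) were of this kind, and one CDR3, ARQLAY, was listed on 22 V genes. Without the neighbours and these repeated CDR3s, 331 members remained, of which 16 (4.83%) used IGHV11-2 and 24 (7.25%) used IGHV12-3, and 157 clonotypes remained in the control set.

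The junctions of many members were close to ones in Igll1-/-. For 250 members (37.3%) the J gene and CDR3 were found in an Igll1-/- library with another V gene, against 204 of the 283 clonotypes of the control set (72.1%) in the WT libraries. A CDR3 repeated on several V genes counts once for each of them, and ARQLAY alone gave 22 of the 204. Among these 250 were 23 of the 208 members on IGHV11-2 and 2 of the 85 on IGHV12-3. A clonotype of the same V and J gene that differed by 1 residue was present in Igll1-/- for 479 members (71.5%), and in WT for 179 of the control set (63.3%). With the neighbours left out the order was reversed, with 224 of 415 members (54.0%) and 143 of 247 control clonotypes (57.9%). Only the remaining 191 members and 104 control clonotypes had no such counterpart, and 5.76% of those 191 used IGHV11-2.

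IGHJ1 was the J gene with the most members, with 322 (48.1%), followed by IGHJ2 with 202 (30.1%), IGHJ3 with 81 (12.1%) and IGHJ4 with 65 (9.70%). In the control set IGHJ2 took 45.6%, IGHJ3 32.2%, IGHJ4 14.5% and IGHJ1 7.77%. The neighbours accounted for much of the IGHJ1 share, since 233 of the 255 used it (91.4%). Among the 415 other members IGHJ1 took 21.4% and IGHJ2 43.6%, and among the 1434 shared clonotypes also found in Igll1-/- they took 17.8% and 53.9%. On IGHV11-2, 195 of 208 members used IGHJ1, and on IGHV12-3, 54 of 85 did.

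The D family IGHD2 was assigned to 320 members (47.8%) and IGHD1 to 178 (26.6%). IGHD4, IGHD3, IGHD5 and IGHD6 had 63, 46, 5 and 1, and 57 members had no D gene assigned. In the control set IGHD1 led with 36.0% and IGHD2 had 25.1%. Among the 415 members that were no neighbours IGHD2 had 40.5%, and among the shared clonotypes also found in Igll1-/- it had 34.9%. Members on IGHV11-2 used mainly IGHD1-1 (75 of 208), IGHD2-1 (47) and IGHD2-5 (47), while 56 of the 85 on IGHV12-3 used IGHD2-3. D genes in short junctions rest on few bases, and 91 members were assigned different D genes in their separate entries.

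**Figure D4:**
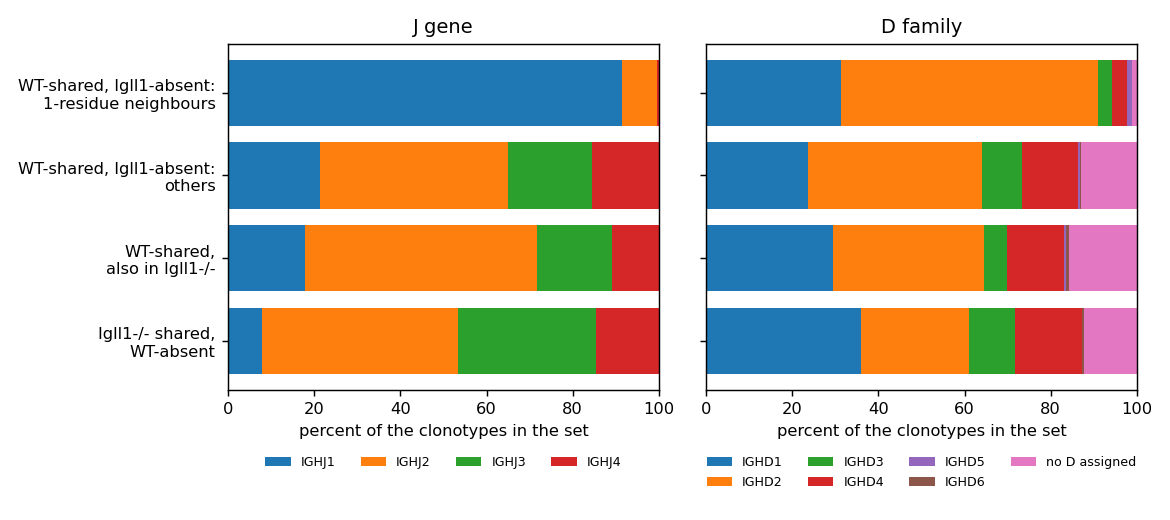
J gene (left) and D family (right) as percent of the clonotypes in each of 4 sets: members that are 1-residue neighbours (n = 255), other members (n = 415), WT-shared clonotypes also found in Igll1-/- (n = 1434) and the control set (n = 283). IGHJ1 fills 91.4% of the neighbours and 21.4% of the other members, against 7.77% of the control set.

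CDR3 length, computed from the amino acid sequence, had a median of 11 residues among the members (mean 10.5 ± 2.3, SD over 670 clonotypes) and of 9 in the control set (8.79 ± 2.59, SD over 283). The shared clonotypes also found in Igll1-/- had a median of 10, as had the 415 members that were no neighbours. Lengths of 11 and 12 residues held 186 and 206 members. Among the neighbours these lengths made up 48.6% and 49.0%. The control set peaked instead at 6 residues (21.2%) and 9 residues (17.7%), where repeated CDR3s made up many of the clonotypes. ARQLAY, on 22 V genes, was 22 of the 60 control clonotypes of 6 residues, and ARGNYYFDY and ARANWYFDY, both with IGHJ2 and on 11 and 10 V genes, were 11 and 10 of the 50 of 9 residues. Over all productive clonotypes the median was 11 in both WT libraries and 10 in both Igll1-/- libraries.

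**Figure D5:**
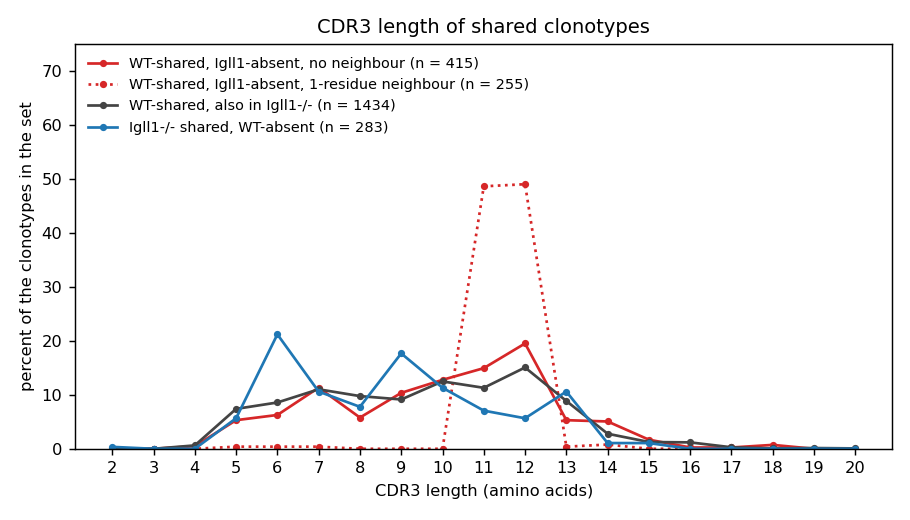
CDR3 length in amino acids (x axis) against the percent of the clonotypes in each set (y axis), for members that are no neighbours (red, solid), neighbours (red, dotted), WT-shared clonotypes also found in Igll1-/- (grey) and the control set (blue). The neighbours lie almost wholly at 11 and 12 residues, the other members peak at 12 (19.5%) and the control set at 6 (21.2%).

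Members on IGHV11-2 had 11 residues in 126 cases and 12 in 73. Members on IGHV12-3 had 12 residues in 81 of 85 cases, and 79 (92.9%) combined this length with glycine at position 6. This form was also that of 83 of the 100 IGHV12-3 clonotypes shared by WT and found in Igll1-/- (83.0%). Among all productive IGHV12-3 clonotypes it made up 71.5% and 53.2% in WT and 64.9% and 27.6% in Igll1-/-, so the genotypes overlapped.

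Identity to the germline V gene, as deposited, was not used by the rule. It was 100% for 428 members (63.9%), for 681 of the 1434 shared clonotypes also found in Igll1-/- (47.5%) and for 133 of the 283 in the control set (47.0%). Of the neighbours 90.6% had full identity, and of the other members 47.5%. The amplified part of V begins in framework region 3, so identity covers a short stretch.

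Unproductive rearrangements encode no heavy chain and had no part in the rule, so V use in them was tested between genotypes with edgeR. Of the 56 V genes tested 3 differed at an adjusted p under 0.05 (5.36%), namely IGHV11-2 and IGHV1-49, which were lower in Igll1-/-, and IGHV1-85, which was higher. IGHV11-2 made up 242 of 4238 (5.71%) and 241 of 3500 (6.89%) unproductive clonotypes in WT and 27 of 1950 (1.38%) and 64 of 3512 (1.82%) in Igll1-/-. The WT libraries were both above the Igll1-/- libraries, and edgeR gave -1.96 ± 0.49 (SE) on the log2 scale (adjusted p = 0.00564). IGHV12-3 made up 8.57% and 6.31% in WT and 13.5% and 11.4% in Igll1-/-, a log2 difference of 0.74 ± 0.32 (SE) at an edgeR adjusted p of 0.263.

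Part of the unproductive IGHV11-2 clonotypes lay within 1 residue of a productive clonotype of the same library with at least 10 times the reads. This was so for 40.1% and 48.5% of them in WT and for 11.1% and 18.8% in Igll1-/-. Without such clonotypes the shares of IGHV11-2 were 3.82% and 4.0% in WT and 1.48% and 1.76% in Igll1-/-, and the log2 fold change of -1.26 no longer passed (edgeR adjusted p = 0.228). IGHV1-85 alone was then called (1.82% of 55), while IGHV12-3 stood at 0.99 (edgeR adjusted p = 0.0665). In the alternative fits IGHV12-3 was always higher in Igll1-/-, with log2 fold changes from 0.54 to 2.34. IGHV1-85 made up 0.543% and 0.40% of unproductive clonotypes in WT and 0.974% and 3.56% in Igll1-/- replicates 1 and 2, so replicate 2 held most of the difference, and without that library IGHV1-85 was not called. IGHV1-49 was not called when either Igll1-/- library was left out. The call for IGHV11-2 was also lost when either Igll1-/- library was left out (-1.79 without replicate 1, -2.18 without replicate 2, both by edgeR). It was lost as well with reads in place of clonotypes (-3.94, edgeR adjusted p = 0.102), with a replicate block (edgeR adjusted p = 0.229) and by DESeq2 (DESeq2 adjusted p = 0.0603). Among the alternative fits the call was lost in 6 and held in 5.

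The Igk libraries of the same sorted cell types offered a second readout outside the rule, with 2 libraries each of WT B-1a, Igll1-/- B-1a and WT B-2 cells in 1 edgeR fit. Of the 79 Igkv genes tested 14 differed between Igll1-/- and WT B-1a cells at an adjusted p under 0.05 (17.7%), 7 higher and 7 lower in Igll1-/-. IGKV14-126, the usual partner of VH11, made up 5.20% and 5.57% of productive Igk clonotypes in WT B-1a, 0.789% and 0.827% in Igll1-/- B-1a and 1.79% and 1.55% in WT B-2 libraries. Both Igll1-/- libraries were below all other libraries, and the log2 difference to WT B-1a was -2.73 ± 0.22 (SE) at an edgeR adjusted p of 1.47e-07. IGKV4-91, the partner of VH12, made up 7.02% and 6.53% in WT B-1a, 3.07% and 3.39% in Igll1-/- B-1a and 1.54% and 1.38% in WT B-2 libraries. It was lower in Igll1-/- than in WT B-1a (-1.07 ± 0.15 on the log2 scale, edgeR adjusted p = 9.66e-05), although not by DESeq2 (-0.87, DESeq2 adjusted p = 0.181). Heavy and light chains were amplified separately, so no pairing can be read from them.

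The rule for the heavy-chain members, applied to the Igk libraries of B-1a cells, gave 288 of 1514 WT-shared clonotypes absent from Igll1-/- (19%) and 73 of 1038 with the genotypes exchanged (7.03%). On IGKV14-126, 57 of 91 were absent from Igll1-/- (62.6%, exact 95% binomial interval 51.9 to 72.6), and on IGKV4-91, 53 of 140 (37.9%, 29.8 to 46.4). With the genotypes exchanged 0 of 5 on IGKV14-126 and 0 of 35 on IGKV4-91 were absent from WT. No test was made of these shares, which count presence in the same libraries as the V gene test above. Unlike for Igh, neighbours of much more abundant clonotypes were not left out of these Igk sets or of the Igkv test. How far such neighbours raise the Igk shares was not tested, and the intervals cover counting error only.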

How the data were processed

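The members and gene lists were chosen with earlier results of these data known. The authors sorted cells, amplified Igh rearrangements from genomic DNA with primers in framework region 3 and J, with primers added for some V genes such as VH12-3, sequenced them and analysed the reads with IMGT/HighV-QUEST. V gene shares therefore depend on primers as well as cells. The deposited tables list clonotypes with the count of their reads and the identity to the germline V gene in percent, as the authors' pipeline gave it. The genome build is not given in the sources used here, and genes carry the names in the tables.

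Productive entries with the same V gene, J gene and CDR3 were summed, and the rule was applied to the sums (Python 3.11.15, pandas 2.3.3). D genes are the entry with the most reads. For the tests, clonotypes per V gene were counted, with the number of clonotypes as library size, those with several V genes in the total only, and genes kept that reached 10 clonotypes in 2 or more libraries. They were compared by the quasi-likelihood test of edgeR 4.0.16 with Benjamini-Hochberg adjustment over all genes, which was tested on simulated data, and by DESeq2 1.42.0 as an alternative (R 4.3.3). Named were the 10 V genes with most members, IGHV11-2, IGHV12-3, IGHV7-1 and IGHV5-2, all V, J and D families, the 10 members and 5 control clonotypes of highest lower read share, and their close relatives. Other clonotypes named were chosen after their values were seen. The study calls the replicates independent experiments, the labels do not say whether they came from separate mice, and p-values measure the spread between these libraries. Reads carry no molecular identifiers, and intervals and count limits cover counting error only. Alternatives changed the read minimum, the definition of absence, the clonotype key, single libraries, the normalization and the filter.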

Additional observations from a re-analysis of the deposited data

How the results depend on the processing

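The size of the set depended on the read minimum and the definition of absence. With a minimum of 1, 5 or 10 reads there were 3560, 181 and 96 members, 1500, 69 and 25 control clonotypes, and IGHV11-2 took 10.8%, 43.6% and 44.8% of the members. With up to 1 read allowed in each library of the other genotype the values were 1076, 440 and 23.9%, and with no clonotype of the other genotype within 1 residue they were 191, 104 and 5.76%. With J gene and CDR3 alone as the key the control set held 164, and with single V genes alone 185, where IGHV11-2 took 36.4% of the members. Leaving out 1 library gave 870 to 9843 members, 386 to 12855 control clonotypes and 4.42% to 25.4% on IGHV11-2, since sharing or absence then rested on a single library. Without Igll1-/- replicate 2 there were 1079 members. With the 1-residue neighbours left out, an alternative added after seeing the data, there were 415 members, 4.82% on IGHV11-2 and a median length of 10, and with repeated CDR3s on other V genes also left out, 331 members, 157 control clonotypes, 4.83% and 10. In all these settings the members outnumbered the control set except in some that left out 1 library.

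Of the unproductive V genes, 3 were called, against 0 by DESeq2 (3 at an unadjusted p under 0.05), 1 with at least 2 reads per clonotype, 6 by reads, 1 with near-identical clonotypes left out and 1 to 6 without 1 library. The cause was not tested. IGHV11-2 was lower in Igll1-/- in each of these fits, with log2 fold changes from -3.94 to -1.26 and adjusted p from 1.95e-05 to 0.419. Of the Igkv genes, 14 were called, against 8 by DESeq2, 9 with at least 2 reads and 3 to 29 without 1 library (3 without WT B-1a replicate 1, 5 without WT B-1a replicate 2, 22 without Igll1-/- replicate 1, 29 without Igll1-/- replicate 2 and 9 without either B-2 library). IGKV14-126 was called in all of them, but no Igkv fit left out near-identical clonotypes.

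Deviations of same-numbered libraries correlated at 0.03 over 56 Ighv genes and 0.04 over 79 Igkv genes, so the numbers were not taken to pair the samples. With the replicate block, 0 unproductive Ighv genes were called by edgeR (8 at an unadjusted p under 0.05; IGHV11-2 -1.98, edgeR adjusted p = 0.229), and 13 Igkv genes, IGKV14-126 and IGKV4-91 among them. Depth limits single values, as 348 members had 2 reads in the WT library with fewer.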
